A study of Mus musculus with 6 samples.

Results

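Granzymes and perforin are the proteins with which cytotoxic lymphocytes kill a target cell. Perforin, encoded by Prf1, forms pores that let granzymes enter the target, and granzymes are serine proteases that are stored with it in the same granules. NK cells and CD8 T cells are their best known sources, and IL-2 and related cytokines are known to raise their transcription. The 6 genes described here were Gzma, Gzmb, Gzmc, Gzmk, Gzmm and Prf1, chosen by name from 34187 gene features. Each was found once in the matrices, as ENSMUSG00000023132 (Gzma), ENSMUSG00000015437 (Gzmb), ENSMUSG00000079186 (Gzmc), ENSMUSG00000042385 (Gzmk), ENSMUSG00000054206 (Gzmm) and ENSMUSG00000037202 (Prf1).

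Single-cell 5′ gene expression was measured in CD45+ cells, the hematopoietic fraction, isolated with beads from subcutaneous pancreatic tumors of mice given 250000 cells of the line 6694c2vTRP1. Treatment was with PBS, with mono-IL10 (human IL-10 as a single chain that does not pair, 26 µg per mouse) or with IL10/2-Trikine (30.6 µg per mouse), in which that IL-10 is fused to a binder that recruits the IL-2 receptor beta chain. There were 2 doses from day 8, and tumors were taken on day 14. Strain, sex and age are not given in the labels. Cells of 5 hashtagged mice were pooled into 1 library for each treatment, so treatment and library cannot be told apart in any comparison below, and the 3 comparisons share mice. The authors had annotated T and NK cells in 12 named clusters.

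The libraries held 44412 (PBS), 30528 (mono-IL10) and 55504 (IL10/2-Trikine) barcodes, of which 516, 843 and 725 were annotated cells. A mouse had been assigned to 348, 635 and 400 of these, between 35 and 215 cells per mouse, and a cell without a mouse was used only where a whole library is described. The median annotated cell had 2780, 3959 and 2635 unique molecular identifiers (UMIs, each 1 counted molecule), so the mono-IL10 library was the deepest. Between 408 and 700 barcodes were shared by 2 libraries, but 0 of these were annotated in both. Levels are given as UMIs of a gene per 10000 UMIs of the same cells. UMIs count molecules at their 5′ end, so levels of different genes can be compared without a length correction. All intervals are 95% exact intervals and cover counting error only.

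The sequences before the transcription starts of Gzma, Gzmb, Prf1 and Gzmk are shown because Gzma, Gzmb and Prf1 were higher and Gzmk lower in parts of the comparisons below. All 6 members matched the RefSeq promoter table by symbol, with 2 start windows for Gzmm. The table is on GRCm38.p6, an older build than the GRCm39 of the counts, and the 250 bases before each start are printed 5′ to 3′ on the strand of the gene. The windows lie at chr13:113100982-113101231 (Gzma, minus strand), chr14:56262335-56262584 (Gzmb, minus strand), chr10:61297586-61297835 (Prf1, plus strand) and chr13:113180966-113181215 (Gzmk, minus strand). Capitals mark TGTGGT on either strand, a core recognized by RUNX factors.
Gzma: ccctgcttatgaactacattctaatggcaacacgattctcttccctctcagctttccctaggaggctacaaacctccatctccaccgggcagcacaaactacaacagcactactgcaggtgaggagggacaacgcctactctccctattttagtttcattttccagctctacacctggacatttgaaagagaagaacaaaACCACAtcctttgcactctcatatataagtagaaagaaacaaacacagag
Gzmb: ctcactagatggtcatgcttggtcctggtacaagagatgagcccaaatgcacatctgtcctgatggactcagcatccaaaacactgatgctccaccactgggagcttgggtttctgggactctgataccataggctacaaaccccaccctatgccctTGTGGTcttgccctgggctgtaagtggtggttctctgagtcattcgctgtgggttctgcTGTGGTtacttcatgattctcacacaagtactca
Prf1: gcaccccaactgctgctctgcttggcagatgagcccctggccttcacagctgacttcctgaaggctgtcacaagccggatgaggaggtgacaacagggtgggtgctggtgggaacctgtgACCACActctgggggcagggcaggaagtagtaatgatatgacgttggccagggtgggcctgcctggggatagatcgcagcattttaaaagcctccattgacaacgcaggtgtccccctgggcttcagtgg
Gzmk: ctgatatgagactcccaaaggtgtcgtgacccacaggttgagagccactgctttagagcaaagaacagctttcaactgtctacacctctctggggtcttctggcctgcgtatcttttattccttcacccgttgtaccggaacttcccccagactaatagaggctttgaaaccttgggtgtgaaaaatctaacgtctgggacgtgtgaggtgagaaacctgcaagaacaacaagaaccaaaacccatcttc

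The motif TGTGGT began 50 bases before the start of Gzma, 93 and 34 bases before that of Gzmb and 130 bases before that of Prf1, and its letters were not in the Gzmk window. Gzmc had 2 matches (174 and 108 bases before the start) and Gzmm 1 in its upstream window. Of all 32851 windows of this length, 14.0% held it. The STAT-type spacing TTCNNNGAA, which reads the same on both strands, matched only in the upstream Gzmm window among the members, against 7.02% of all windows. A match describes letters and does not show a site.

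NK cells held most transcripts of 3 members. In PBS, mono-IL10 and IL10/2-Trikine, the NK and Cycling_NK clusters together contained 73.7%, 66.0% and 75.4% of the Gzma UMIs of annotated cells, 82.0%, 87.8% and 71.3% of the Gzmc UMIs and 81.4%, 80.2% and 76.6% of the Prf1 UMIs, while they made up 33.7%, 31.2% and 58.8% of the cells. Gzmb was spread more widely, with 43.8%, 42.7% and 59.5% of its UMIs in NK cells. The clusters had been named by the authors from the same cells, so the levels by cluster are a description and no test was made between clusters. The NK cluster carried the defining markers Ncr1 at 1.62, 1.95 and 2.17 and Klre1 at 3.55, 3.67 and 4.04 UMIs per 10000, and Cd3e, which marks T cells, at 0.0161, 0.0660 and 0.0788. Over all T markers listed below, which include Cd3e, 59 of 174, 122 of 263 and 131 of 426 NK and Cycling_NK cells held both a T and an NK marker UMI. Another 8, 7 and 6 held a T marker UMI and no NK marker UMI.

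**Figure D1:**
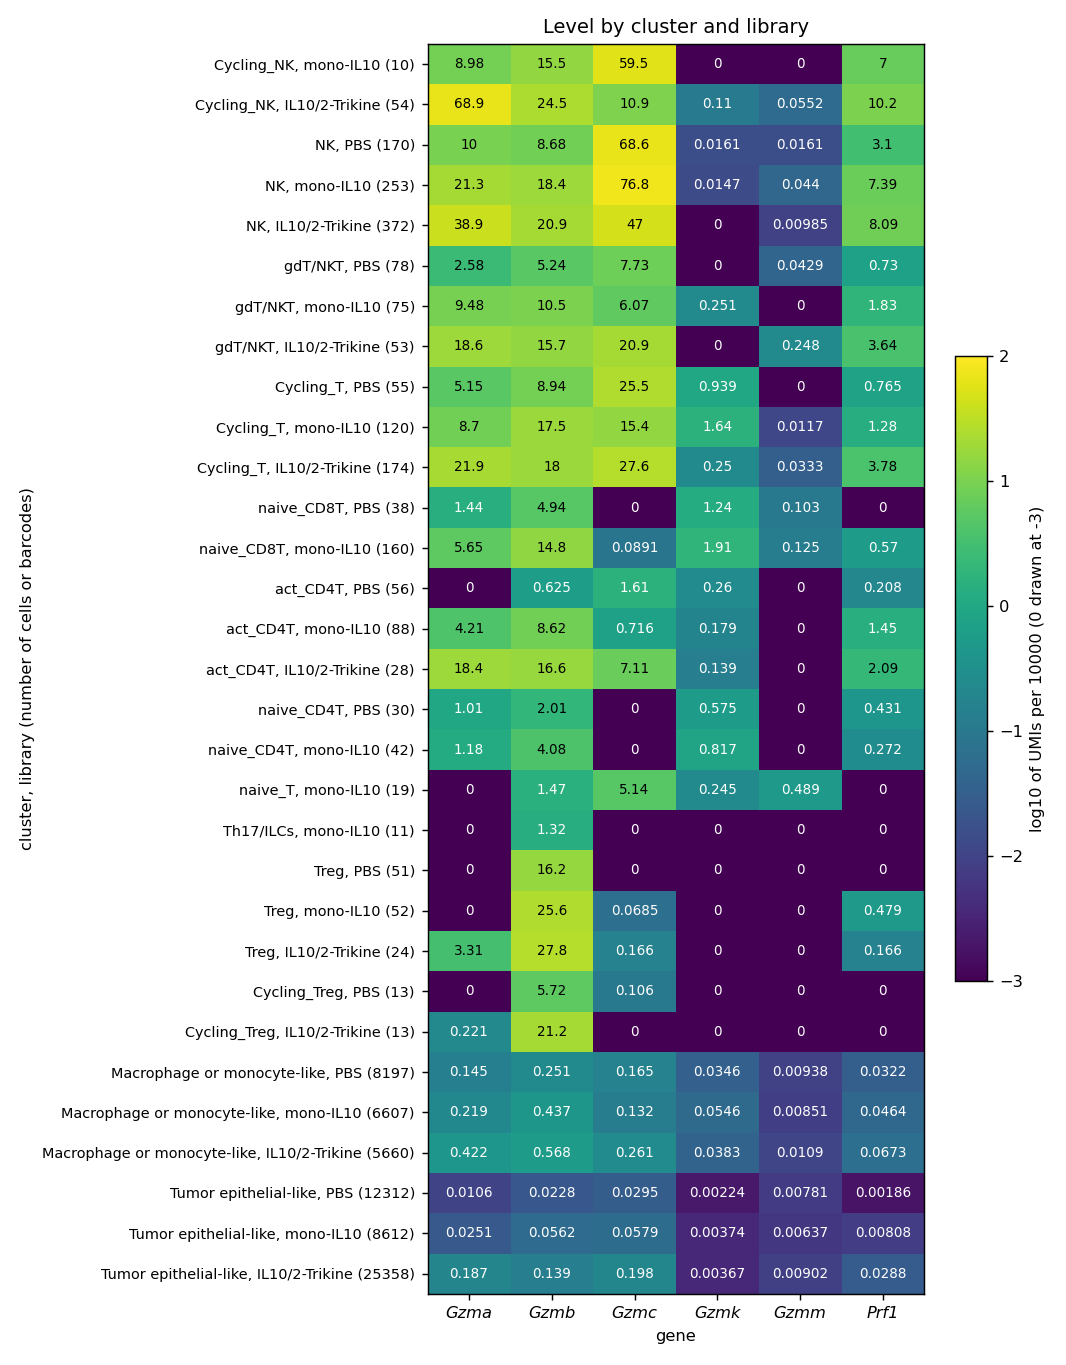
Heat map of the level of each of the 6 genes (log10 of UMIs per 10000, color scale) in every annotated cluster with at least 10 cells and in macrophage-like and tumor-like barcodes, with 1 row for each cluster and treatment library and the value printed in the cell (a level of 0 is drawn at -3). Within each library NK or Cycling_NK is the highest row for Gzma, Gzmc and Prf1, Treg rows are bright for Gzmb and not for Gzma or Prf1, and Gzmk is highest in naive_CD8T and Cycling_T.

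Gzma, a tryptase-like granzyme, was at 10.0 (interval 9.27 to 10.9), 21.3 (20.5 to 22.0) and 38.9 (37.7 to 40.2) UMIs per 10000 in the NK cluster of PBS, mono-IL10 and IL10/2-Trikine. Its highest level anywhere was 68.9 (65.2 to 72.9) in the 54 Cycling_NK cells of IL10/2-Trikine, against 8.98 (7.37 to 10.8) in the 10 Cycling_NK cells of mono-IL10. Lower levels were seen in Cycling_T with 5.15, 8.70 and 21.9, in the gdT/NKT cluster with 2.58, 9.48 and 18.6 and in act_CD4T with 0, 4.21 and 18.4. Cells without a mouse are included in these levels. In Cycling_T the 5 IL10/2-Trikine mice with at least 10 cells ran from 12.4 to 21.8, and the 4 such mono-IL10 mice from 1.96 to 18.7. In act_CD4T 1 cell held 92 of the 188 UMIs of mono-IL10 and 1 cell 130 of the 132 of IL10/2-Trikine, and without these the levels were 2.19 and 0.294. In NK, Cycling_T and gdT/NKT the 3 libraries stood in the order PBS, mono-IL10, IL10/2-Trikine, with counting intervals that did not overlap. Between mice with at least 5 cells, however, the gdT/NKT levels ran from 0 to 2.30 in PBS, from 0.417 to 22.9 in mono-IL10 and from 4.95 to 12.3 in 2 IL10/2-Trikine mice, so mono-IL10 overlapped both other groups.

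Prf1 followed the same clusters at a lower level. It stood at 3.10, 7.39 and 8.09 UMIs per 10000 in the NK cluster, at 10.2 in the Cycling_NK cells of IL10/2-Trikine, at 0.765, 1.28 and 3.78 in Cycling_T and at 0.730, 1.83 and 3.64 in gdT/NKT. The NK levels of mono-IL10 and IL10/2-Trikine were neighbors whose intervals overlapped (6.94 to 7.86 and 7.55 to 8.67).

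Gzmb, a granzyme that cleaves caspases, was high in T cells too. The NK cluster had 8.68, 18.4 and 20.9 UMIs per 10000, Cycling_T 8.94, 17.5 and 18.0, and naive_CD8T 4.94 and 14.8 in PBS and mono-IL10, with only 2 naive_CD8T cells in IL10/2-Trikine. In all 3 libraries the Treg cluster was above the NK cluster, at 16.2 (14.1 to 18.6), 25.6 (23.1 to 28.3) and 27.8 (23.8 to 32.4). Cycling_Treg was at 5.72, 16.7 and 21.2 in 13, 6 and 13 cells, below the NK cluster in PBS and mono-IL10 and near it in IL10/2-Trikine. Regulatory T cells are known to use granzyme B. Prf1 in the Treg cluster stood at 0, 0.479 and 0.166 UMIs per 10000, from 0, 7 and 1 UMIs. Of the Treg cells, 0 of 51 PBS and 0 of 52 mono-IL10 Treg cells had a Gzma UMI, which allows shares of up to 6.98% and 6.85% of cells with a detected UMI and sets no limit on cells that express the gene. The 20 Gzma UMIs of the IL10/2-Trikine Treg cells came from 2 of 24 cells, and both also carried an NK marker UMI.

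The cluster that the authors named naive_CD8T held granzyme transcripts. In mono-IL10, 125 of its 160 cells had a Gzmb UMI and 43 had a Gzma UMI, and in PBS 16 and 7 of 38 did. The name is kept here only as a label.

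Gzmc, a granzyme found in activated mouse lymphocytes, reached the highest levels of all members in the NK cluster. The NK cluster had 68.6, 76.8 and 47.0 UMIs per 10000 in PBS, mono-IL10 and IL10/2-Trikine, and Cycling_NK of IL10/2-Trikine had 10.9, below its own NK cluster. T cell clusters ranged widely, with 25.5, 15.4 and 27.6 in Cycling_T, 7.73, 6.07 and 20.9 in gdT/NKT and 1.61, 0.716 and 7.11 in act_CD4T. In naive_CD8T there were 0 UMIs in 38 PBS cells and 5 UMIs in 160 mono-IL10 cells. Gzmc lies in a cluster of closely related granzymes with Gzmb, and reads that matched several of them could have been dropped before counting, so levels between these paralogs are uncertain.

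Gzmk went the other way round. It was found in T cells, at 1.24 and 1.91 UMIs per 10000 in naive_CD8T and at 0.939, 1.64 and 0.2496 in Cycling_T, whereas the 170, 253 and 372 cells of the NK cluster held 1, 2 and 0 UMIs. Gzmm, a granzyme known from NK cells, was hardly seen, with 4, 16 and 7 UMIs over the 516, 843 and 725 annotated cells and NK levels of 0.0161, 0.0440 and 0.0098.

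Barcodes outside the annotation gave the background. Macrophage- or monocyte-like barcodes, called macrophage-like here, which should not make these transcripts, had Gzma at 0.145, 0.219 and 0.422 UMIs per 10000 in PBS, mono-IL10 and IL10/2-Trikine, and tumor-like barcodes had 0.0106, 0.0251 and 0.187. NK cells were 69.3-fold, 97.2-fold and 92.4-fold above the macrophage-like level for Gzma, and 96.4-fold, 159-fold and 120-fold for Prf1. Gzmb in the Treg cluster was 64.6-fold, 58.7-fold and 49.0-fold above it. Gzmk in NK cells lay below the macrophage-like level of 0.0346, 0.0546 and 0.0383 in every library and is therefore read as background. So is Gzmc in naive_CD8T and Treg, which lay below 0.165, 0.132 and 0.261. Gzmm in NK cells was near its macrophage-like level of 0.0094, 0.0085 and 0.0109 in PBS and IL10/2-Trikine, and its 6 UMIs in mono-IL10 (interval 0.0161 to 0.0957) lay above it.

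The background itself differed between the libraries. For Gzma it had the order of libraries seen in NK cells. Of 162, 190 and 205 macrophage-like barcodes with a Gzma UMI, 107, 73 and 88 also held an NK marker UMI, against 4.502%, 3.42% and 4.26% of all macrophage-like barcodes. A T marker UMI was held by 94, 137 and 100 of those with a Gzma UMI. Of all tumor-like barcodes 29.8%, 42.6% and 19.1% held an NK marker UMI, so such a UMI does not by itself identify an NK cell. Over the mice of IL10/2-Trikine the Gzma background ran from 0.207 to 0.578 UMIs per 10000 in macrophage-like and from 0.168 to 0.602 in tumor-like barcodes. Its part in the levels of annotated cells was not tested.

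The first comparison asked how the members differed between treatments in all T and NK cells of a mouse. Of the 6 members, 5 passed the filter on low counts, and Gzmm did not. Gzma, Gzmb and Prf1 rose with IL10/2-Trikine against PBS, Gzma rose further against mono-IL10, and Gzmk fell against mono-IL10. The members past an adjusted p of 0.05 (edgeR quasi-likelihood test, Benjamini-Hochberg over 4595 genes) were 3 higher and 0 lower for IL10/2-Trikine against PBS, where 9.49% of all genes passed, 1 higher and 1 lower for IL10/2-Trikine against mono-IL10, where 8.84% passed, and 3 higher and 0 lower for mono-IL10 against PBS, where 1.11% passed. In bulk sums such as these, fewer cells of a type and less RNA per cell cannot be told apart. The share of NK cells was 28.8% ± 7.96 (SD, n = 5 mice) with PBS, 30.2% ± 4.99 with mono-IL10 and 55.4% ± 9.76 with IL10/2-Trikine.

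Gzma was at 1.17, 1.70, 3.72, 7.46 and 4.05 UMIs per 10000 in the 5 PBS mice, at 8.30, 13.5, 11.2, 9.41 and 9.35 in the mono-IL10 mice and at 19.0, 29.97, 51.6, 32.8 and 30.2 in the IL10/2-Trikine mice. The 3 groups did not overlap. On the log2 scale the difference was 3.13 (SE 0.32, 8.76-fold) for IL10/2-Trikine against PBS, with an edgeR adjusted p of 5.8e-07, 1.61 (SE 0.29, 3.05-fold, adjusted p = 6.7e-04) against mono-IL10 and 1.52 (SE 0.30, 2.87-fold, adjusted p = 0.0090) for mono-IL10 against PBS.

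Prf1 was at 0.357, 1.59, 0.655, 2.26 and 0.772 in PBS, at 3.73, 3.35, 2.97, 1.87 and 5.49 in mono-IL10 and at 3.93, 5.51, 8.61, 6.602 and 6.04 in IL10/2-Trikine. Every IL10/2-Trikine mouse was above every PBS mouse, whereas mono-IL10 overlapped both neighbors. The edgeR log2 difference was 2.31 (SE 0.33, adjusted p = 6.1e-05) for IL10/2-Trikine against PBS and 1.56 (SE 0.32, adjusted p = 0.012) for mono-IL10 against PBS, and the adjusted p was 0.10 between the cytokines.

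Gzmb was at 9.48, 6.55, 5.16, 10.8 and 6.24 in PBS, at 17.2, 11.2, 24.6, 15.7 and 20.1 in mono-IL10 and at 15.0, 22.5, 19.3, 21.7 and 19.4 in IL10/2-Trikine. Both cytokine groups lay above PBS without overlap, and they overlapped with each other. The edgeR log2 difference from PBS was 1.36 (SE 0.19, adjusted p = 6.0e-05) with IL10/2-Trikine and 1.26 (SE 0.19, adjusted p = 5.0e-04) with mono-IL10. Between the cytokines it was 0.10 (SE 0.18, adjusted p = 0.80).

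Gzmk, a granzyme of memory-like and exhausted CD8 T cells, was the member that fell. It was at 0.510, 0.615, 0.164, 0.249 and 0.193 in PBS, at 0.764, 0.543, 0.778, 0.915 and 0.565 in mono-IL10 and at 0.187, 0.155, 0, 0.068 and 0.131 in IL10/2-Trikine, from 4, 6, 0, 1 and 4 UMIs. Every IL10/2-Trikine mouse was below every mono-IL10 mouse, with an edgeR log2 difference of -2.52 (SE 0.37, 5.72-fold lower, adjusted p = 6.7e-05). Against PBS the value was -1.41 (SE 0.47, adjusted p = 0.057), which passed with DESeq2 (-1.45, adjusted p = 0.043), with no filter on low counts in edgeR (-1.42, adjusted p = 0.027) and when PBS mouse 3 was left out (-1.59, adjusted p = 0.034). For mono-IL10 against PBS it was 1.11 (SE 0.28, edgeR adjusted p = 0.056), which passed without PBS mouse 1 or 2, mono-IL10 mouse 2 or IL10/2-Trikine mouse 3 (adjusted p = 0.045, 0.012, 0.037 and 0.048) and with no filter on low counts (1.17, adjusted p = 0.0012).

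Gzmc differed by less than the spread between mice. It was at 13.003, 68.3, 15.1, 35.7 and 21.7 in PBS, at 41.9, 21.2, 43.2, 23.7 and 35.5 in mono-IL10 and at 25.4, 40.4, 15.9, 49.3 and 31.1 in IL10/2-Trikine. The groups overlapped throughout, and the edgeR adjusted p was between 0.88 and 0.95 in the 3 comparisons.

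**Figure D2:**
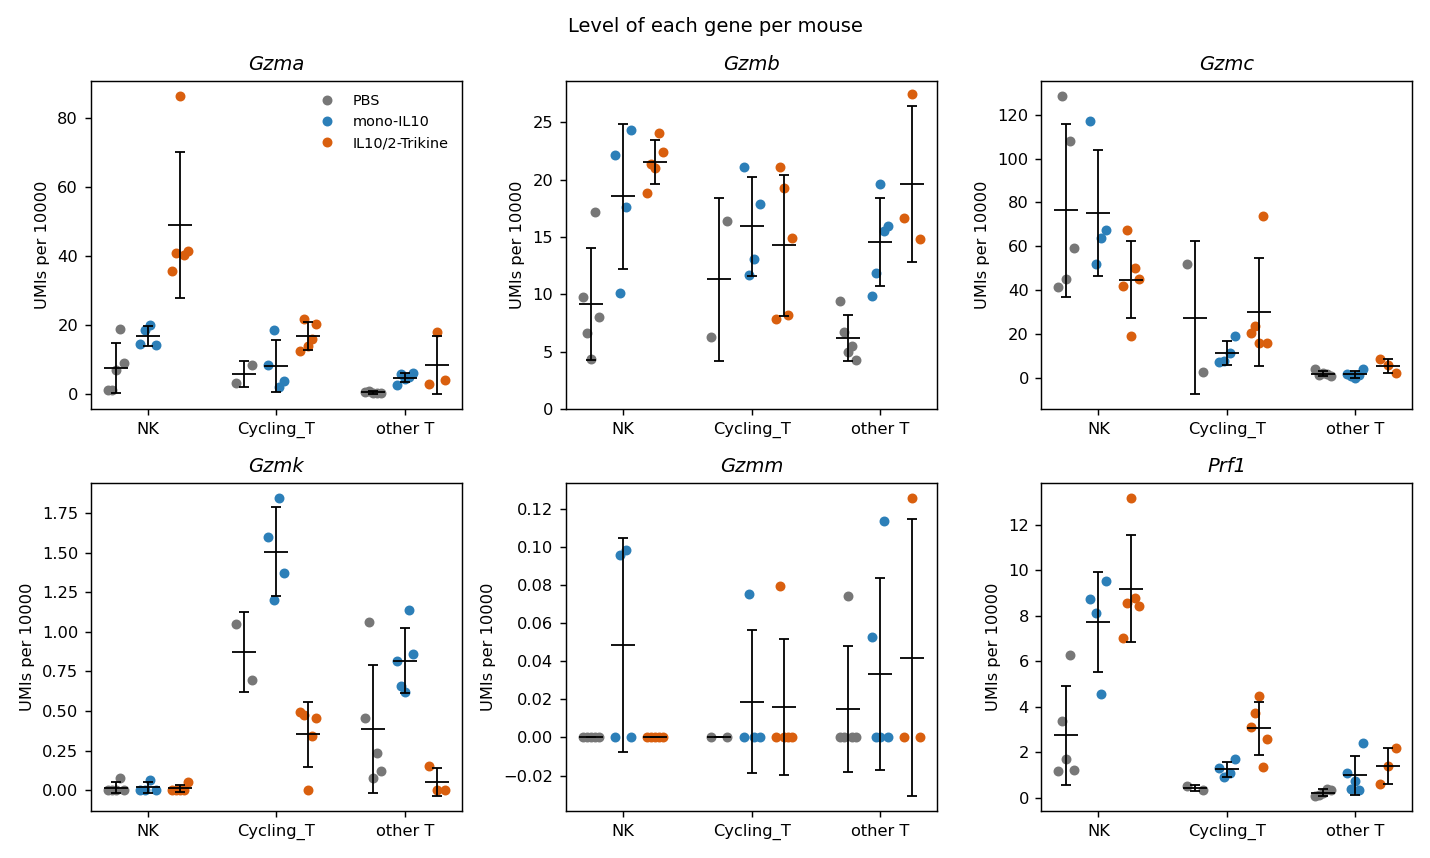
Level of each gene in UMIs per 10000 (vertical axis, 1 panel per gene) in NK cells, Cycling_T cells and other T cells of every mouse with at least 10 such cells, colored by treatment, with bars for the mean ± SD over mice. In NK cells the IL10/2-Trikine mice lie between 35.6 and 86.2 for Gzma, above all other mice, and Gzmk is near 0 in NK cells of every group.

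To separate the sizes of clusters from the levels within them, the level of each mouse was split into the part that its share of UMIs in each cluster gave, at the mean level of that cluster over the 3 groups, and the rest, which lies within clusters. The 3 groups counted alike in that mean, so some cluster levels rest on few cells. IL10/2-Trikine had 2 naive_CD8T cells and 2 ISG+CD8T cells, with Gzmb at 136 UMIs per 10000 in the latter. What these few cells alone do to the size of each part was not tested. Group means of the parts were tested by exact two-sided permutation of the mice (n = 5 against 5, smallest possible p = 0.0079), adjusted over 36 tests. Of these, 21 passed, among them 2 of Gzmm, whose share parts were -0.0084 UMIs per 10000 against PBS and -0.0073 against mono-IL10 (exact permutation adjusted p = 0.032 for both), no larger than its macrophage-like level. All 21 also passed in the same direction when the cluster levels of the PBS library replaced the mean over the 3 groups. The share parts of all 6 members weight the same cluster shares, so their tests are not independent. An adjusted p also depends on how many tests of its family reached the smallest p. An exact permutation p of 0.0079 gave an adjusted p of 0.032 here and of 0.061 among the 54 tests of shares of cells below.

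The larger part of the Gzma difference lay within clusters. For IL10/2-Trikine against PBS, 5.77 UMIs per 10000 came from cluster shares (exact permutation adjusted p = 0.034) and 23.3 from within clusters (adjusted p = 0.032). Against mono-IL10 the parts were 4.25 (exact permutation adjusted p = 0.034) and 18.1 (adjusted p = 0.032). For mono-IL10 against PBS the shares gave 1.52 (exact permutation adjusted p = 0.28) and the part within clusters 5.22 (adjusted p = 0.041). In the part within clusters all 5 IL10/2-Trikine mice lay above every PBS mouse.

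Gzmb behaved in another way between the cytokines. Both were above PBS within clusters, by 10.7 UMIs per 10000 each (exact permutation adjusted p = 0.032 for IL10/2-Trikine and 0.034 for mono-IL10). IL10/2-Trikine exceeded mono-IL10 by 1.83 through cluster shares (exact permutation adjusted p = 0.032) and by 0.03 within clusters (adjusted p = 1.0). For Prf1, IL10/2-Trikine against PBS gave 1.29 from shares and 3.72 from within clusters (exact permutation adjusted p = 0.034 and 0.032), and against mono-IL10 0.972 and 1.69 (adjusted p = 0.034 and 0.11).

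For Gzmc the parts had opposite signs. Cluster shares alone raised it by 13.1 UMIs per 10000 in IL10/2-Trikine against PBS and by 9.97 against mono-IL10 (exact permutation adjusted p = 0.034 and 0.032), while the parts within clusters were -11.4 and -10.7 (adjusted p = 0.34 and 0.23). For Gzmk, IL10/2-Trikine against mono-IL10 gave -0.108 from shares and -0.497 from within clusters (exact permutation adjusted p = 0.041 and 0.032). The naive_CD8T level used in this split is the mean of 1.24 in PBS, 1.91 in mono-IL10 and 0 in the 2 IL10/2-Trikine cells. A part within clusters also holds changes in the cells that make up a cluster. Cycling_T held 49.5% and 83.3% of the Gzmk UMIs of mono-IL10 and IL10/2-Trikine, and its cells with a T marker and no NK marker were 80.0% and 20.1% of the cluster, whose part in the Gzmk value was not tested. Several calls were lost when 1 mouse was left out, which also raises the smallest possible p. Of 15 such settings, the call of Gzmb from shares against PBS was lost in 10, that of Gzma within clusters for mono-IL10 against PBS in 7 and that of Gzmk from shares against mono-IL10 in 8. The calls from shares against PBS for Gzma, Gzmc and Prf1 were lost without PBS mouse 1 (exact permutation adjusted p = 0.0504, 0.0504 and 0.063), and those against mono-IL10 without mono-IL10 mouse 3 or 4 for Gzma and without mono-IL10 mouse 1, 2, 3 or 4 for Prf1. The call of Gzmb within clusters for mono-IL10 against PBS was lost without PBS mouse 1.

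**Figure D3:**
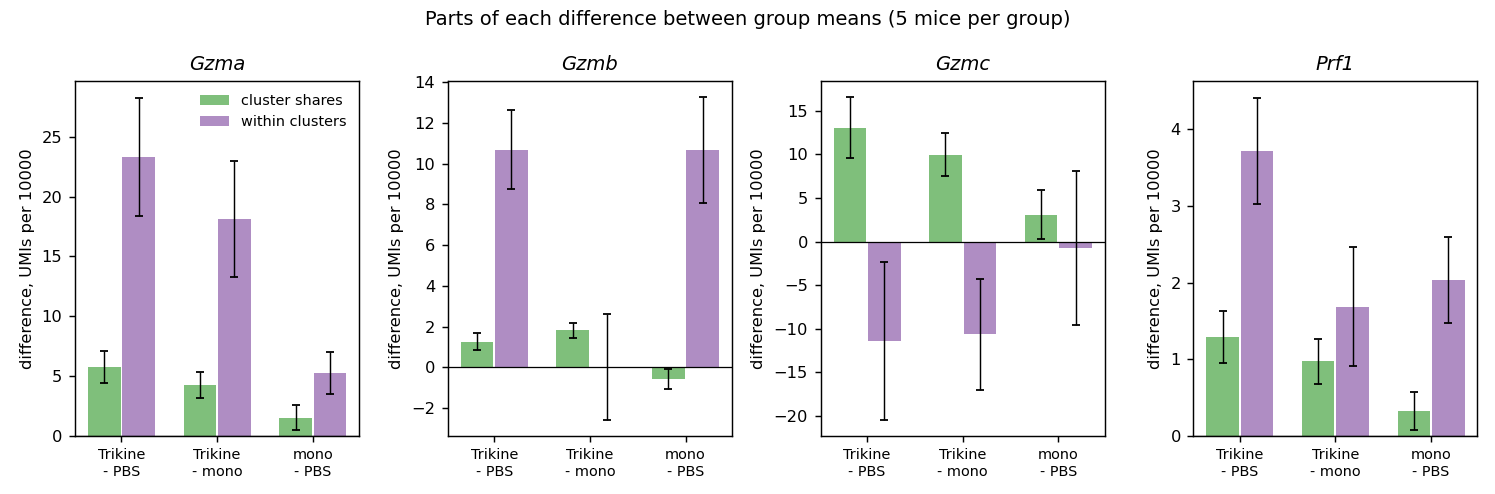
Difference between treatments in UMIs per 10000 (vertical axis) for Gzma, Gzmb, Gzmc and Prf1, split into the part given by cluster shares and the part within clusters, as bars from 0 with the standard error of the difference over 5 mice per group. The bar within clusters is the tall one for Gzma, and the bars for Gzmc point in opposite directions.

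NK cells were then tested alone, over the NK and Cycling_NK clusters, in 5 PBS, 4 mono-IL10 and 5 IL10/2-Trikine mice. Gzma, Gzmb and Prf1 rose with IL10/2-Trikine against PBS. By edgeR, 3 of 4 tested members were higher and 0 lower, where 4.42% of 2355 genes passed. Against mono-IL10, where 2.38% passed, and for mono-IL10 against PBS, where 0.297% passed, 0 of 4 members passed by edgeR and 0 by DESeq2, with 2 and 3 at an unadjusted p under 0.05.

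Gzma in NK cells was at 1.18, 1.22, 7.05, 18.8 and 9.06 UMIs per 10000 in PBS, at 14.5, 18.6, 20.1 and 14.3 in the 4 mono-IL10 mice and at 35.6, 40.8, 86.2, 40.3 and 41.5 in IL10/2-Trikine. All IL10/2-Trikine mice were above all others, and PBS spread over more than a factor of 10. The edgeR log2 difference was 2.60 (SE 0.43, 6.08-fold, adjusted p = 0.0014) against PBS and 3.42 without PBS mouse 4. It was 1.46 (SE 0.43, adjusted p = 0.064) against mono-IL10, which passed after thinning all mice to 1 total (1.61, adjusted p = 0.028) and without PBS mouse 1, 2 or 4 (adjusted p = 0.039, 0.017 and 0.011).

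Prf1 in NK cells was at 1.18, 3.39, 1.69, 6.29 and 1.21 in PBS, at 8.75, 8.12, 4.55 and 9.52 in mono-IL10 and at 7.01, 8.56, 13.2, 8.79 and 8.43 in IL10/2-Trikine. The cytokine groups overlapped, and PBS mouse 4 reached into mono-IL10. By edgeR the log2 difference of IL10/2-Trikine from PBS was 1.52 (SE 0.31, adjusted p = 0.0070), or 2.12 without PBS mouse 4. For mono-IL10 against PBS it was 1.35 (SE 0.32, adjusted p = 0.075), which passed without PBS mouse 4 (1.94) and without mono-IL10 mouse 4 (1.54, adjusted p = 0.023).

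Gzmb in NK cells was at 9.73, 6.602, 4.37, 17.2 and 8.05 in PBS, at 22.1, 10.1, 17.6 and 24.3 in mono-IL10 and at 18.8, 21.4, 21.0, 24.1 and 22.4 in IL10/2-Trikine. IL10/2-Trikine was the tightest group and lay above all of PBS. Its edgeR log2 difference was 1.20 (SE 0.26, adjusted p = 0.0090), and that of mono-IL10 was 1.04 (SE 0.27, adjusted p = 0.086), which passed without PBS mouse 4 (1.48) and without mono-IL10 mouse 2 (1.25). For Gzma the value for mono-IL10 against PBS was 1.14 (edgeR adjusted p = 0.31), or 1.95 and past the threshold (adjusted p = 0.0083) without PBS mouse 4.

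Gzmc in NK cells was at 41.6, 129, 44.9, 108 and 59.2 in PBS, at 117, 52.1, 63.5 and 67.5 in mono-IL10 and at 41.7, 67.5, 19.2, 50.2 and 45.2 in IL10/2-Trikine. The IL10/2-Trikine mean of 44.8 ± 17.4 (SD, n = 5) was the lowest, but the groups overlapped and edgeR gave an adjusted p of 0.13 against PBS and 0.17 against mono-IL10.

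Transcripts were less concentrated in a few NK cells in the IL10/2-Trikine library. The tenth of NK cells with the most UMIs of a gene held 68.7%, 51.2% and 42.3% of the Gzma UMIs in PBS, mono-IL10 and IL10/2-Trikine, 72.1%, 61.7% and 45.5% of the Gzmc UMIs and 59.7%, 47.8% and 33.8% of the Prf1 UMIs. The highest cell had 873, 673 and 108 Gzmc UMIs in the 3 libraries. These shares are a description. The median depth in the NK cluster was 3086, 4846 and 2532 UMIs, and the PBS mice pooled here differed widely in their Gzma level. The parts of depth, of the level itself and of this pooling in the shares were not tested.

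Shares of NK cells with a UMI were taken after each cell had been thinned to 1500 UMIs. Their means for Gzma, Gzmb and Prf1 were lowest in PBS and highest in IL10/2-Trikine, though no test of them passed, as given below. For Gzma they were 24.3% ± 12.3 (SD, n = 5 mice) in PBS, 50.5% ± 4.05 (n = 4) in mono-IL10 and 71.6% ± 14.7 (n = 5) in IL10/2-Trikine, against 0.806%, 1.14% and 1.91% of thinned macrophage-like barcodes, whose median depths were 5533, 6601 and 2848 UMIs. Without thinning the NK shares were 30.3%, 54.8% and 73.0%. Prf1 was found in 22.9%, 54.4% and 66.9% of thinned NK cells and Gzmb in 38.3%, 59.7% and 73.4%, against at most 0.619% and 4.28% of macrophage-like barcodes. For Gzmc the shares of 56.3%, 52.7% and 61.4% overlapped, with the highest mean in IL10/2-Trikine, where its mean level in NK cells was the lowest.

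None of the 54 tests of shares passed after adjustment. For Gzma in NK cells all 5 IL10/2-Trikine mice were above all PBS mice, the exact permutation p was 0.0079, which is the smallest this design allows, and the adjusted p was 0.061. In 16 of the 54 exact permutation tests the unadjusted p was under 0.05.

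Cells of all clusters but NK, Cycling_NK and Cycling_T, called other T cells here, were tested in 5 PBS, 5 mono-IL10 and 3 IL10/2-Trikine mice. Gzma and Gzmb rose with both cytokines against PBS. By edgeR, 2 of 5 members were higher and 0 lower for IL10/2-Trikine against PBS, where 1.42% of 2886 genes passed, and for mono-IL10 against PBS, where 0.901% passed. Between the cytokines, where 4.75% passed, Gzmc was higher and Gzmk lower. Different clusters made up this class in the 3 libraries. Of its 287, 460 and 125 cells in PBS, mono-IL10 and IL10/2-Trikine, 38, 160 and 2 were naive_CD8T, 78, 75 and 53 gdT/NKT, 56, 88 and 28 act_CD4T and 51, 52 and 24 Treg. The part of this make-up in the Gzma and Gzmb differences of other T cells was not tested.

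Gzma in other T cells was at 0.607, 1.06, 0.223, 0.416 and 0.238 UMIs per 10000 in PBS, at 2.79, 5.91, 4.46, 4.89 and 6.06 in mono-IL10 and at 3.06, 18.1 and 4.02 in IL10/2-Trikine mice 1, 2 and 5. Both cytokine groups were above PBS without overlap. The edgeR log2 difference was 4.19 (SE 0.51, adjusted p = 3.4e-05) with IL10/2-Trikine and 2.85 (adjusted p = 0.0023) without its mouse 2. The act_CD4T cell with 130 Gzma UMIs came from that mouse.

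For mono-IL10 against PBS the Gzma log2 difference in other T cells was 3.35 (SE 0.46, edgeR adjusted p = 5.8e-04). When only cells with a T marker UMI and no NK marker UMI were kept, it was 2.999 with an adjusted p of 0.18. Cells with an NK marker and no T marker made up 2.09% (interval 0.771 to 4.49), 1.96% and 11.2% of other T cells in PBS, mono-IL10 and IL10/2-Trikine, and the 9 such cells of mono-IL10 held 154 Gzma UMIs, against 349 in 360 cells with a T marker only. Marker UMIs were counted without thinning, and the mono-IL10 library was the deepest. In T-marker cells alone, the Gzma level was 0.507, 2.63 and 9.14. Without the cell with the most Gzma UMIs in each library (16 of 34, 58 of 349 and 130 of 157), a choice made after seeing the data, it was 0.269, 2.20 and 1.61, so that mono-IL10 and no longer IL10/2-Trikine was the highest.

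Gzmb in other T cells was at 9.40, 6.70, 4.97, 5.50 and 4.28 in PBS, at 9.85, 11.9, 19.6, 15.5 and 16.0 in mono-IL10 and at 16.7, 27.4 and 14.8 in IL10/2-Trikine. Every cytokine-treated mouse was above every PBS mouse. By edgeR the log2 difference was 1.69 (SE 0.24, adjusted p = 2.1e-04) with IL10/2-Trikine and 1.27 (SE 0.21, adjusted p = 0.0013) with mono-IL10.

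Prf1 in other T cells was at 0.0758, 0.118, 0.223, 0.370 and 0.356 in PBS, at 1.11, 0.394, 0.726, 0.319 and 2.41 in mono-IL10 and at 0.611, 1.38 and 2.19 in IL10/2-Trikine. The 3 IL10/2-Trikine mice lay above PBS, and mono-IL10 overlapped both. The edgeR log2 values against PBS were 2.46 (SE 0.76, adjusted p = 0.10) with IL10/2-Trikine and 1.97 (SE 0.59, adjusted p = 0.11) with mono-IL10. Without mono-IL10 mouse 5 the first passed (adjusted p = 0.042), and without mono-IL10 mouse 4 the second did (adjusted p = 0.032).

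Gzmk in other T cells was nearly undetected in the IL10/2-Trikine library. It was at 0.816, 0.657, 0.623, 1.14 and 0.858 in mono-IL10, and the 3 IL10/2-Trikine mice held 1 UMI in all against 118 UMIs over the mono-IL10 mice. The ratio of levels was 0.0565, with a counting interval of 0.0014 to 0.321, and the edgeR adjusted p was 0.024. Of the 13 fits that left out 1 mouse, Gzmk passed the filter on low counts in 6, and in 3 of these the call was lost, without IL10/2-Trikine mouse 1, 2 or 5 (adjusted p = 0.055, 0.11 and 0.076). Among clusters with at least 10 cells, Gzmk was highest in naive_CD8T in PBS and mono-IL10, while 7 ISG+CD8T cells of mono-IL10 were at 3.61. The naive_CD8T cluster had 160 cells in mono-IL10, 38 in PBS and 2 in IL10/2-Trikine, and the part of these cell numbers in the result was not tested. For mono-IL10 against PBS the log2 value was 1.35 (edgeR adjusted p = 0.13), or 1.93 and past the threshold without PBS mouse 2 (adjusted p = 0.021).

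Gzmc in other T cells had an edgeR log2 difference of 1.84 (SE 0.53, adjusted p = 0.044) between IL10/2-Trikine (8.56, 5.66 and 2.01) and mono-IL10 (1.501, 0.789, 0, 0.979 and 4.02). The groups overlapped, DESeq2 gave an adjusted p of 0.29, and the call was lost in 7 of 13 fits that left out 1 mouse, namely PBS mouse 3 or 4, mono-IL10 mouse 1, 2 or 4, or IL10/2-Trikine mouse 1 or 2 (adjusted p between 0.052 and 0.30). Without mono-IL10 mouse 5 the value was 2.45 (edgeR adjusted p = 0.0054). In cells with a T marker and no NK marker, only 6 Gzmc UMIs were left in IL10/2-Trikine, at 0.349, and 175 UMIs lay in its 14 cells with an NK marker alone.

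The Cycling_T cluster had 10 or more cells in 2 PBS, 4 mono-IL10 and 5 IL10/2-Trikine mice. Prf1 rose with IL10/2-Trikine against both other groups, and Gzmk fell against mono-IL10. The cell make-up of the cluster also differed between the libraries, as given below. By edgeR, 1 of 5 members was higher against PBS, where 1.34% of 1935 genes passed, 1 was higher and 1 lower against mono-IL10, where 5.53% passed, and 0 passed for mono-IL10 against PBS by edgeR or DESeq2, where 0.517% passed and 2 members had an unadjusted p under 0.05.

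Prf1 in Cycling_T was at 0.525 and 0.348 UMIs per 10000 in PBS, at 1.31, 0.901, 1.10 and 1.69 in mono-IL10 and at 3.10, 3.73, 4.46, 1.36 and 2.57 in IL10/2-Trikine. PBS lay below the rest, and IL10/2-Trikine mouse 4 fell among the mono-IL10 mice. By edgeR the log2 difference was 2.80 (SE 0.49, adjusted p = 0.0044) against PBS and 1.36 (SE 0.26, adjusted p = 0.0014) against mono-IL10. After thinning of all mice to 1 total they were 1.93 and 1.10, with edgeR adjusted p of 0.24 and 0.23. Of the 227 Prf1 UMIs in Cycling_T of IL10/2-Trikine, 136 lay in 69 cells with an NK marker and no T marker. Another 12 lay in 35 cells with a T marker and no NK marker. The part of this cell make-up in the Prf1 differences was not tested.

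Gzmk in Cycling_T was at 1.05 and 0.696 in PBS, at 1.60, 1.20, 1.85 and 1.37 in mono-IL10 and at 0.490, 0.477, 0, 0.341 and 0.453 in IL10/2-Trikine. The last group was below all others. Its edgeR log2 difference from mono-IL10 was -1.93 (SE 0.38, adjusted p = 0.0021). After thinning of all mice to 1 total Gzmk did not pass the filter on low counts and was not tested. Gzma was at 3.15 and 8.53, at 8.35, 18.7, 1.96 and 3.69, and at 12.4, 21.8, 14.1, 16.0 and 20.2 in the same order, with log2 values of 1.59 against PBS and 1.06 against mono-IL10 and edgeR adjusted p of 0.17 and 0.089.

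Gzmc in Cycling_T was at 52.0 and 2.61 in PBS, at 7.10, 7.66, 11.4 and 19.1 in mono-IL10 and at 20.3, 23.4, 16.0, 73.6 and 15.7 in IL10/2-Trikine. The PBS mice had the lowest and the second highest value. For mono-IL10 against PBS the log2 value was -1.33 (edgeR adjusted p = 0.38), or -2.20 without PBS mouse 4 (adjusted p = 0.0010) and 2.07 without PBS mouse 2 (adjusted p = 0.28). For IL10/2-Trikine against mono-IL10 the log2 value was 1.34 (SE 0.46, edgeR adjusted p = 0.089), which passed without PBS mouse 2 or 4, mono-IL10 mouse 5 or IL10/2-Trikine mouse 5, as Gzma did without PBS mouse 2 or 4 or mono-IL10 mouse 2. Gzmb overlapped in all groups, at 6.30 and 16.4 in PBS, 11.7 to 21.1 in mono-IL10 and 7.84 to 21.1 in IL10/2-Trikine, with edgeR adjusted p of 0.66 to 0.84.

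Cells with NK markers took different shares of this cluster. With an NK marker UMI and no T marker UMI there were 7 of 55 cells in PBS (12.7%, interval 5.27 to 24.5), 1 of 120 in mono-IL10 (0.833%, 0.0211 to 4.56) and 69 of 174 in IL10/2-Trikine (39.7%, 32.3 to 47.3). Cells with a T marker and no NK marker were 65.5%, 80.0% and 20.1%. Cd8b1, a CD8 T cell marker, was at 3.03, 5.15 and 0.58 UMIs per 10000 in the cluster, and Ncr1 at 0.52, 0.34 and 1.43. Marker UMIs were counted without thinning, and a marker is missed more readily in a shallow cell. The median annotated cell had 2780, 3959 and 2635 UMIs. In NK cells the share with an NK marker and no T marker was 56.3%, 48.7% and 64.8%. The part of depth in the marker shares was not tested.

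In Cycling_T cells with a T marker alone, the levels of Gzma were 3.60, 10.8 and 18.4 in PBS, mono-IL10 and IL10/2-Trikine, those of Gzmc 0.208, 0.977 and 10.3, those of Prf1 0.277, 0.576 and 1.16 and those of Gzmk 1.59, 2.21 and 0.970. The order of the libraries for Gzma and Gzmk was thus the same as in the whole cluster, in 36, 96 and 35 cells, but the Gzmk levels lay closer together than the 0.939, 1.64 and 0.2496 of the whole cluster. In the 69 cells of IL10/2-Trikine with an NK marker alone, Gzmc was at 45.6, Prf1 at 5.69 and Gzmk at 0.0418. A test in T-marker cells alone could not be fitted, since 0 PBS mice had 10 such cells.

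**Figure D4:**
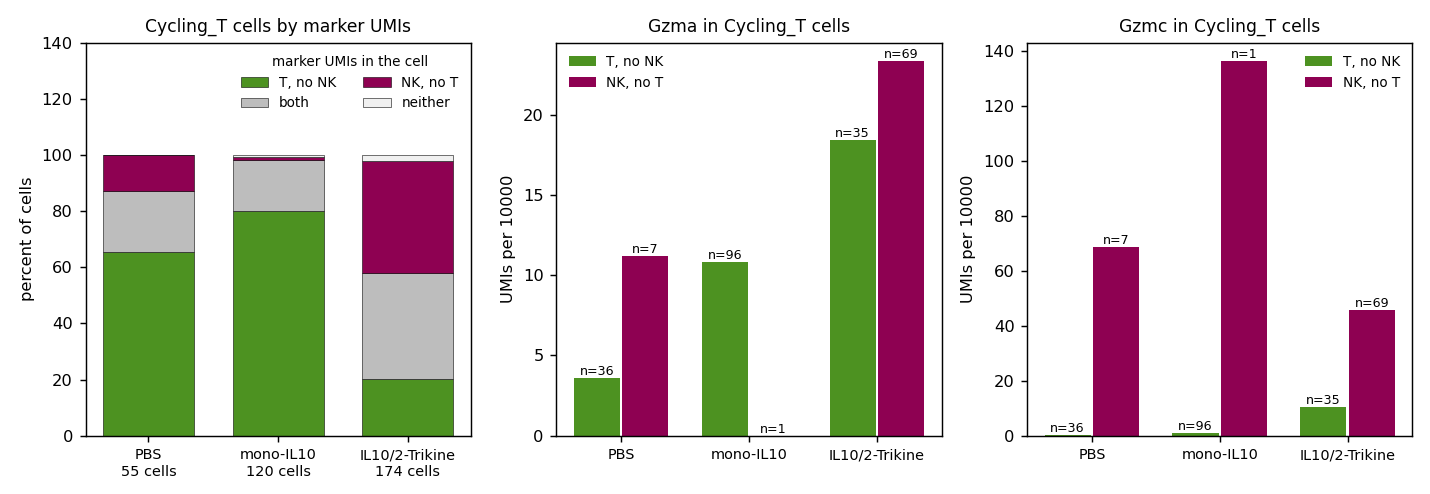
Share of Cycling_T cells (percent) by whether they held UMIs of T markers only, NK markers only, both or neither, for each treatment library, and the levels of Gzma and Gzmc (UMIs per 10000) in T-marker-only and NK-marker-only cells. The NK-only share is 39.7% in IL10/2-Trikine and 0.833% in mono-IL10, and the single NK-only cell of mono-IL10 gives that library's NK-only bar.

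Whether effects differed between NK cells and other T cells was tested on the difference of log2 levels within each mouse, with a pseudocount of 1 UMI per 10000. It used 3 IL10/2-Trikine, 4 mono-IL10 and 5 PBS mice. The smallest possible p was 0.029 between the cytokines, 0.018 between IL10/2-Trikine and PBS and 0.0079 between mono-IL10 and PBS. None of 18 exact permutation tests passed after adjustment. A single test at its smallest p could not pass among 18, so this does not show that effects were alike. Only Gzmk between the cytokines had an unadjusted p under 0.05, at the smallest possible value (exact permutation adjusted p = 0.40). Since Gzmk in NK cells was at background, that value only restates the difference in other T cells. For Gzmc the effect in NK cells was lower than in other T cells by 1.60 against PBS and 1.66 against mono-IL10 (exact permutation adjusted p = 0.40 for both). With Cycling_T counted among the other T cells these became -2.17 and -2.41 and passed (exact permutation adjusted p = 0.048). That class then holds the 69 Cycling_T cells of IL10/2-Trikine with an NK marker and no T marker, which carried 1090 of the 1656 Gzmc UMIs of the cluster, against 106 in its T-marker-only cells. The part of this cell make-up in the Gzmc difference was not tested.

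The ratio of Gzma to Gzmb was looked at after the values of both genes had been seen. Of 9 exact permutation tests computed on it, 4 had an adjusted p under 0.05, but they restate the pattern that led to the choice and support nothing, so the values are given as a description. In NK cells the log2 ratio of their UMIs per mouse, with 1 added to each count, was -0.83 ± 1.60 (SD, n = 5) in PBS, -0.07 ± 0.76 (n = 4) in mono-IL10 and 1.10 ± 0.52 (n = 5) in IL10/2-Trikine. It was -2.77, -2.36, 0.67, 0.13 and 0.17 in the PBS mice, -0.61, 0.88, 0.20 and -0.77 in mono-IL10 and 0.91, 0.93, 2.03, 0.74 and 0.89 in IL10/2-Trikine. The IL10/2-Trikine mice lay above all PBS mice, and 1 mono-IL10 mouse lay among them. In other T cells the ratio was -3.53 ± 0.59 (n = 5) in PBS, -1.59 ± 0.42 (n = 5) in mono-IL10 and -1.61 ± 0.92 (n = 3) in IL10/2-Trikine.

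Cells with both transcripts were more frequent in the cytokine libraries. After thinning, which left out 1 other T cell of IL10/2-Trikine with 1463 UMIs, 13.8% (interval 9.04 to 19.8) of PBS, 31.6% (26.0 to 37.6) of mono-IL10 and 52.3% (47.5 to 57.2) of IL10/2-Trikine NK cells had UMIs of Gzma and Gzmb, and 40.8%, 22.8% and 11.7% had neither. Both were found in 16.4%, 23.3% and 41.4% of Cycling_T cells and in 2.79%, 10.9% and 15.3% of other T cells. Treg cells had Gzmb without Gzma in 72.5%, 76.9% and 75.0% of cells. A granzyme (Gzma, Gzmb or Gzmc) together with Prf1 was seen in 25.9%, 49.8% and 61.3% of NK cells. Cells of 1 library are not replicates of a treatment, so these shares carry no test.

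**Figure D5:**
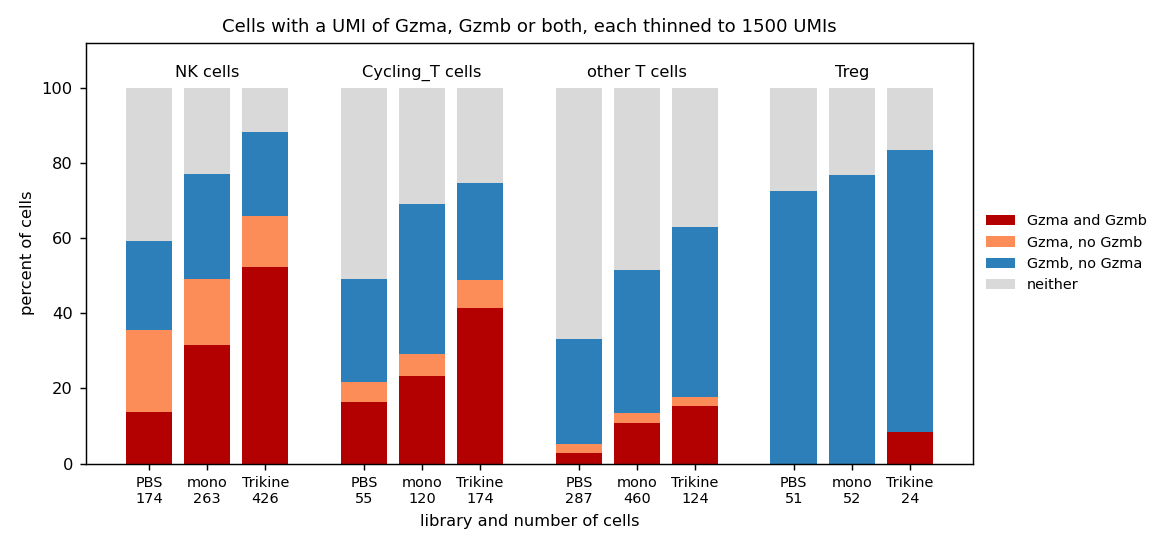
Share of cells (percent, stacked bars) with UMIs of Gzma and Gzmb, of only 1 of them or of neither, in NK, Cycling_T, other T and Treg cells of each treatment library, after thinning to 1500 UMIs per cell. The share of NK cells with both is 13.8% in PBS and 52.3% in IL10/2-Trikine, and Treg bars consist mostly of cells with Gzmb only.

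The rest of the granule pathway was read from a list of 34 genes. Of the 31 tested in all T and NK cells, 3 rose and 1 fell with IL10/2-Trikine against PBS, 0 rose and 2 fell against mono-IL10, and 1 rose with mono-IL10 against PBS. These are 12.9%, 6.45% and 3.23% of the genes tested from the list, beside 9.49%, 8.84% and 1.11% of all genes. Nkg7, a granule membrane protein of cytotoxic cells, had edgeR log2 differences of 0.53 (adjusted p = 0.0040) and 0.83 (adjusted p = 2.4e-04) from PBS with IL10/2-Trikine and mono-IL10. Serpinb9 and Serpinb6b, of which the former inhibits granzyme B, rose by 0.52 and 0.48 with IL10/2-Trikine against PBS (edgeR adjusted p = 0.038 and 0.039). Lyst, needed for the trafficking of lytic granules, fell by 0.81 against PBS and by 0.68 against mono-IL10 (adjusted p = 0.032 and 0.049), and Srgn, the proteoglycan that packs granzymes, fell by 0.49 against mono-IL10 (adjusted p = 0.0017).

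The list was also read within populations. In NK cells 0 of 24 passed against PBS with either cytokine by edgeR, beside 4.42% and 0.297% of all genes. In the same cells 1 of 24 (4.17%, beside 2.38% of all genes) passed between the cytokines, where Srgn fell by 0.54 with IL10/2-Trikine against mono-IL10 (adjusted p = 0.015). In Cycling_T, IL10/2-Trikine against mono-IL10 gave a lower Nkg7 (-0.79, edgeR adjusted p = 2.9e-04) and higher Serpinb9 (1.14, adjusted p = 0.0050) and Serpinb6b (0.93, adjusted p = 0.022), which were 3 of 16 genes (18.8%, against 5.53% of all genes), beside the change in NK-marker cells given above. In the same cluster 0 of 16 genes passed for IL10/2-Trikine against PBS by edgeR (beside 1.34% of all genes), and for mono-IL10 against PBS 1 of 16 did (6.25%, beside 0.517%), Nkg7 at 0.88 (adjusted p = 0.012). In other T cells, mono-IL10 against PBS raised Nkg7 by 1.10 and Cst7, a cystatin that restrains granzyme processing, by 1.11 (edgeR adjusted p = 0.0013 and 0.017), 2 of 21 genes (9.52%, beside 0.901% of all genes). In the same cells Fasl, the ligand of the Fas death receptor, fell by 2.10 with IL10/2-Trikine against mono-IL10 (edgeR adjusted p = 0.049), 1 of 21 genes (4.76%, beside 4.75%). Of the other granzymes Gzmd, Gzme, Gzmf, Gzmg and Gzmn, 4 were tested in NK cells and 0 passed. Their median log2 difference with IL10/2-Trikine was -1.93 against PBS and -2.26 against mono-IL10, beside -0.02 and -0.01 over all genes tested.

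The genes whose levels followed a member most closely were sought over 20 pairs of cluster and library with at least 20 cells, among 3417 genes. For Gzma they were Ctsd (Pearson r = 0.93), Prf1 (0.91) and Rpl41 (0.89), for Prf1 Ncr1 (0.92), Gzma (0.91) and Klri2 (0.90) and for Gzmc Irf8 (0.94), Sulf2 (0.92) and Fcer1g (0.91). For Gzmk they were Fam241a (0.91), Cd8b1 (0.90) and Emg1 (0.87) and for Gzmb they included Atp5e (0.84) and Atf6 (0.79), while Gzmm was below 1 UMI per 10000 in every pair. The pairs share libraries, depth and mice, and these correlations describe 20 points.

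Annotated cells held only a part of these transcripts. Of 5637, 18077 and 38131 Gzma UMIs in the PBS, mono-IL10 and IL10/2-Trikine libraries, 15.5%, 25.2% and 18.1% were in annotated cells, and 35.4%, 40.5% and 33.5% in barcodes whose cluster could not be named. NK-like barcodes outside the annotation, 36, 41 and 159 of them, had Gzma at 3.79, 14.6 and 33.7 UMIs per 10000, in the order of the annotated NK cells. In the 158, 253 and 43 T-like barcodes Gzma was at 2.33, 9.67 and 4.62, so that mono-IL10 was the highest there. Of the 459, 368 and 378 Gzmm UMIs, 48.6%, 48.6% and 56.6% lay in tumor-like barcodes, at 0.0078, 0.0064 and 0.0090 UMIs per 10000. These levels were below the macrophage-like 0.0094, 0.0085 and 0.0109, so the shares do not mark Gzmm as a transcript of tumor-like barcodes.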

How the data were processed

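CD45+ cells of 3 treatment groups had been sequenced as 1 pooled gene expression and 1 hashtag library each. The authors deposited raw UMI counts per gene and barcode, made with Cell Ranger on GRCm39, and a table of annotated T and NK cells with their clusters and mice. That table also gives, per the file headers, counts of UMIs and genes per cell and the percent of mitochondrial UMIs. Seurat 5.1.0 and DESeq2 1.46.0 are named in the submitters' processing notes. The table held 7858 cells of a group not analysed here. The authors kept cells with at least 1000 genes and at most 10% mitochondrial UMIs. Hashtags were called again with HTODemux (Seurat 5.3.0, quantile 0.99). The call was the same in 93.2% to 98.8% of annotated cells, 0 got another mouse, and 8.50% to 12.2% of barcodes past the filter had several hashtags and were left out of the background.

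The mouse was the replicate. Member counts were summed per mouse and population (at least 10 cells) and tested with edgeR 4.0.16 in R 4.3.3 (TMM, filterByExpr, quasi-likelihood, all 3 groups in 1 fit), at an adjusted p of 0.05. Shares of cells were taken after thinning to 1500 UMIs, which left out 0 cells with a mouse, and group means over mice were tested by exact two-sided permutation. T markers were Cd3e, Cd3d, Cd3g, Trac and Trbc2, and NK markers Ncr1, Klrb1c, Klre1, Klra8 and Klra4, all counted without thinning. Barcodes outside the annotation were grouped into 60 k-means clusters on 40 components (scikit-learn 1.9.0) and named from marker lists, with the ending "-like". All members were named, and pathway genes only where they passed the test. Some genes are not reported here. The members and lists were chosen with earlier results of these data known. Scripts were tested on simulated data. Alternatives were DESeq2 1.42.0, other size factors, no filter, thinning, other cells or mice, cluster levels of the PBS library and leaving out each mouse.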

Additional observations from a re-analysis of the deposited data

Results flagged for a closer look

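In 58 groups of 4 or more mice the highest or lowest mouse was compared with the rest by Dixon's test, which flags about 1 in 20 groups by chance, and 10 stood apart. The Gzma level in NK cells of IL10/2-Trikine mouse 3 was 86.2 UMIs per 10000 and its Prf1 level 13.2, each the highest of 5 mice, and that mouse had 27 NK cells. The Gzmc level in Cycling_T cells of IL10/2-Trikine mouse 4 was 73.6, from 10 cells. The remaining 7 were mice with 1 or 2 UMIs in groups otherwise at 0. For Gzmk these were NK cells of PBS mouse 4 (0.0777), mono-IL10 mouse 4 (0.0655) and IL10/2-Trikine mouse 5 (0.0540). For Gzmm these were T and NK cells of PBS mouse 3 (0.0409), its other T cells (0.0742), and Cycling_T cells of mono-IL10 mouse 2 (0.0751) and of IL10/2-Trikine mouse 2 (0.0795).

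Outside the annotated cells, mast-like barcodes carried Gzmb at 19.0 UMIs per 10000 in mono-IL10 and 4.16 in IL10/2-Trikine, against 1.28 in PBS. These were 48, 41 and 46 barcodes, of which 34, 18 and 11 had a Gzmb UMI, and 1, 4 and 0 of those also had an NK marker UMI. A T marker UMI was found in 2, 3 and 0 of those with a Gzmb UMI. In mono-IL10 a single barcode held 287 of 803 UMIs (35.7%). Gzma had 0 UMIs in the mast-like barcodes of PBS and mono-IL10 and 8 UMIs in IL10/2-Trikine. The difference between treatments was not tested.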

How the results depend on the processing

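Over all T and NK cells, Gzma and Prf1 in the 3 comparisons, Gzmb against PBS and Gzmk where it could be fitted kept their direction under every alternative run there, and the calls of Gzma, Gzmb and Prf1 against PBS held. Gzmb between the cytokines ran from -0.02 to 0.31 and changed sign, as did Gzmc, from -0.10 to 0.60 (IL10/2-Trikine against PBS), from -0.27 to 0.11 (against mono-IL10) and from -0.03 to 0.68 (mono-IL10 against PBS). With no filter on low counts the members called were 2 and 3 in NK cells (IL10/2-Trikine against mono-IL10, mono-IL10 against PBS), 2, 4 and 1 in Cycling_T cells in the 3 comparisons, and 4 in other T cells for either cytokine against PBS. In the same comparisons the genes past the usual filter passed in 2.72% and 1.74% (NK), 1.96%, 6.56% and 1.55% (Cycling_T), and 3.15% and 3.26% (other T), each more than with the filter, and member p-values were far smaller (Gzma in NK cells between the cytokines, adjusted p = 2.3e-16 against 0.064). The cause was not tested. DESeq2 called 1 member in other T cells between the cytokines. Thinning to 1 total gave 1 member in NK cells between the cytokines, and 0 in Cycling_T cells against PBS and 0 against mono-IL10, where Gzmk did not pass the filter. T-marker cells alone (chosen after seeing the data, like mice with at least 5 cells) gave 1 member in other T cells for mono-IL10 against PBS. With Cycling_T counted as other T cells, 1 and 2 members differed between NK and T effects, for IL10/2-Trikine against PBS (Gzmc) and mono-IL10 (Gzmc, and Gzmk, whose NK level is background). When 1 mouse was left out, the members past the threshold in cluster shares ranged from 1 to 5 (against PBS), from 3 to 6 (against mono-IL10) and from 0 to 2 (mono-IL10 against PBS), and those within clusters from 0 to 4 for mono-IL10 against PBS. Members called ranged in NK cells from 0 to 1 between the cytokines and from 0 to 3 for mono-IL10 against PBS, in other T cells from 0 to 2 between the cytokines, and in Cycling_T cells from 1 to 2, from 1 to 4 and from 0 to 1. Gzmc in Cycling_T cells for mono-IL10 against PBS ran from -2.20 to 2.07 and turned positive without PBS mouse 2, which leaves 1 PBS mouse, assumed to vary like the others. Cells with at least 2000 genes were not run, since 0 IL10/2-Trikine mice had 10 of them and all 3 groups were fitted together. Over T and NK cells 3 PBS and 5 mono-IL10 mice had 10 such cells, and a fit of these 2 groups alone was not run. No paired analysis was possible because a hashtag number names a mouse within its own library and pairs no mice across treatments. When only cells with a mouse were kept, 24 levels by cluster and library moved beyond their spread and 174 did not. That spread was the SD over mice or, without one, the reach of the counting interval to either side. Low counts limit Gzmk, at 0 to 6 UMIs per IL10/2-Trikine mouse, and Gzmm, which did not pass the filter of the edgeR test of levels.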

Other observations

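Fibroblast-like barcodes carried more UMIs of Gzmc than of any other member. There were 444 Gzmc UMIs in 610 barcodes of PBS, 573 in 469 of mono-IL10 and 283 in 916 of IL10/2-Trikine, at 0.477, 0.609 and 0.498 UMIs per 10000, above the macrophage-like levels of 0.165, 0.132 and 0.261. A Gzmc UMI was found in 26.2%, 27.5% and 13.1% of these barcodes, and in 6.23%, 7.68% and 4.26% after thinning to 1500 UMIs. Of the 160, 129 and 120 barcodes with one, 4, 8 and 8 also had an NK marker UMI and 19, 21 and 14 a T marker UMI. Of all fibroblast-like barcodes, 1.64%, 4.69% and 2.29% had an NK marker UMI. Gzmb in the same barcodes was at 0.0516, 0.119 and 0.125 UMIs per 10000. Prf1 was at 0.0011, 0.0138 and 0.0299 UMIs per 10000, and Gzma at 0.0021, 0.0489 and 0.0985.

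Regulatory T-like barcodes outside the annotation, 46, 25 and 43 in PBS, mono-IL10 and IL10/2-Trikine, had Gzmb at 6.81 (interval 5.86 to 7.87), 12.2 (10.48 to 14.2) and 20.8 (18.7 to 23.1) UMIs per 10000 and Gzma at 0.111, 0 and 0.852, from 3, 0 and 14 UMIs. Among mature dendritic-like barcodes of mono-IL10, 1 barcode held 134 of 135 Gzmc UMIs.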
